A study of Mus musculus with 8 samples.

Results

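The response to IL-6 was measured in macrophages labelled DNMT3A-HET (HET), by comparing 2 libraries of cells given IL-6 with 2 control libraries. These 4 libraries were taken from the 8 of the series by their labels, and no measured value was used to choose them. The other 4 libraries are the same treatment pair in wild-type (WT) macrophages and enter here to show where HET differed. Whole bone marrow of 13-week-old male mice, 3 for each genotype, was grown in M-CSF at 50 ng/mL, the growth factor that turns marrow progenitors into macrophages. The treated cultures received IL-6 (10 ng/mL) on day 6 for 2 days, and polyadenylated RNA of all groups was collected on day 8. Neither the type of DNMT3A allele behind the label HET nor the mouse behind each library is given in the sources used here. The p-values therefore rest on how far these libraries differ from each other, which may be technical variation alone. Both HET numbers occur in each treatment, so libraries with the same number may come from the same mouse.

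IL-6 binds its receptor IL-6R together with gp130 (encoded by Il6st), which activates JAK kinases and the transcription factor STAT3. SOCS3 is induced by STAT3 and blocks gp130, so the pathway limits itself. In macrophages IL-6 is known to raise the IL-4 receptor chain and to shape the answer to other cytokines, and DNMT3A, a de novo DNA methyltransferase, is a gene often mutated in clonal blood cell expansion.

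The level of a gene is given as its count per 1000000 counts of the library (CPM), with library sizes scaled by the TMM method, and always in the order number 1, number 2. Changes are log2 fold changes of IL-6 over control ± standard error from edgeR's quasi-likelihood test, with n = 2 libraries a group, and a gene is called (rose or fell) at an adjusted p under 0.05. The HET control libraries held 22473528 and 23542770 counts and the HET IL-6 libraries 24365374 and 50137897, so HET IL-6 number 2 was 2.14 times as deep as the mean of the other HET libraries. A count of 3 corresponded to 0.0598 to 0.159 CPM over the 8 libraries. The gene of the genotype label, Dnmt3a (chromosome 12, 3806007 to 3914443, mm10), stood at 166 and 248 CPM in the control libraries and 140.1 and 213 CPM in the IL-6 libraries, against 275 and 244 CPM in WT control and 175 and 183 CPM in WT IL-6. Both HET number 1 libraries lay below the WT libraries of their treatment, whereas the number 2 libraries did not, so "HET" here means the libraries labelled HET. The main counts of genes below are also given without both number 2 libraries, a choice made after their values were seen. IL-6 changed Dnmt3a by -0.23 ± 0.25 in HET (edgeR adjusted p = 0.607), which did not pass the test.

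Short stretches of promoter are shown first, because the gene groups below were compared for 4 known regulatory motifs. RefSeq promoters on build GRCm38.p6 were found for 9988 of the 13721 tested genes, as windows of 300 bases from 250 before to 50 after the gene start, and both strands were searched. The interferon-stimulated response element was searched as GAAA, any 2 bases and again GAAA, the STAT site as TTCNNNGAA, the cell cycle homology region as TTTGAA and the ATF4-CEBP composite element as TGATGNAAT. A base could count toward more than 1 motif. Each line runs 5′ to 3′ on the strand of the gene and ends before the start site. Capitals mark matches of the motif named for that line only. The first 6 are interferon-stimulated genes that fell, and the next 3 are cell cycle genes that fell. Aars and Cd5l rose, and the last 3 are shown for their STAT site. The Aars line also ends in a match of the STAT site, left in lower case.
Isg15 (interferon-stimulated response element, chr4:156200850-156200909, reverse strand): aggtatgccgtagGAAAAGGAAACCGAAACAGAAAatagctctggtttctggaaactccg
Rsad2 (interferon-stimulated response element, chr12:26456538-26456597, reverse strand): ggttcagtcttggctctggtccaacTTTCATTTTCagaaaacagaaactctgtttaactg
Ifit3 (interferon-stimulated response element, chr19:34583382-34583441, forward strand): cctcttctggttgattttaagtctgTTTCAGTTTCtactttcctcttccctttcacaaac
Ifit3b (interferon-stimulated response element, chr19:34607778-34607837, forward strand): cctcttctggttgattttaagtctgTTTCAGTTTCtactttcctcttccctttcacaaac
Gbp3 (interferon-stimulated response element, chr3:142559980-142560039, forward strand): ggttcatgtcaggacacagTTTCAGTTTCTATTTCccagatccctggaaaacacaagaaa
Cxcl10 (interferon-stimulated response element, chr5:92349068-92349127, reverse strand): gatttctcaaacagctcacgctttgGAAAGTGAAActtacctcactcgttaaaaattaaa
Cdk1 (cell cycle homology region, chr10:69352913-69352952, reverse strand): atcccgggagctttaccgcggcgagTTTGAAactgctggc
Ccnb2 (cell cycle homology region, chr9:70421691-70421746, reverse strand): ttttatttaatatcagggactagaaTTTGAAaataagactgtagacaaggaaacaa
Top2a (cell cycle homology region, chr11:99024190-99024237, reverse strand): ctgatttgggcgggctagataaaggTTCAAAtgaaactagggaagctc
Aars (ATF4-CEBP composite element, chr8:111033704-111033762, forward strand): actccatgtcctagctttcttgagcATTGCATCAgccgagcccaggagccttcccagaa
Cd5l (ATF4-CEBP composite element, chr3:87357718-87357776, forward strand): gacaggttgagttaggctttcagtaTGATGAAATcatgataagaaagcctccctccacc
Socs3 (STAT site, chr11:117969487-117969545, reverse strand): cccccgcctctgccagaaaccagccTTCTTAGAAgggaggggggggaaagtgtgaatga
Fcgr1 (STAT site, chr3:96294045-96294103, reverse strand): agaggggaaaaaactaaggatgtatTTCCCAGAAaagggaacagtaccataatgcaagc
Dnmt3l (STAT site, chr10:78049690-78049748, forward strand): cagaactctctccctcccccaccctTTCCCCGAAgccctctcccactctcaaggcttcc
The stretches of Ifit3 and Ifit3b, neighbouring copies on chromosome 19, were the same letter for letter, and reads of the 2 genes may be split between them by the counting. A match of letters describes these windows only and shows no binding.

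The interferon-stimulated response element was in 4.05% of all tested promoters. It was in 21 of 38 promoters (55.3%) of the interferon-stimulated gene list and in 8 of 9 (88.9%) of the interferon-inducible GTPase list, both described below. Among genes that fell at least 2-fold it was in 24 of 181 (13.3%), and among those that rose at least 2-fold in 6.28%. The cell cycle homology region was in 14.6% of all tested promoters and in 20.3% of those of genes that fell. Its share was 18 of 26 (69.2%) in the mitosis list and 5 of 9 (55.6%) in the GTPase list, but 4 of 26 (15.4%) in the DNA replication list, close to all promoters. The ATF4-CEBP element was in 0.571% of all promoters, in 3 of 12 (25%) of the aminoacyl-tRNA synthetases and in 1 of 14 (7.14%) of the integrated stress response list. The STAT site was in 8.15% of all promoters, in 21 of 191 (11%) of genes that rose at least 2-fold and in 7.73% of those that fell at least 2-fold. By list it was in 3 of 34 promoters (8.82%) of the IL-6 pathway genes, in 7 of 38 (18.4%) of the interferon-stimulated genes and in 5 of 9 (55.6%) of the GTPases, both of which fell.

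IL-6 changed 2508 of 13721 tested genes in HET (18.3%), of which 1217 rose (8.87% of tested genes) and 1291 fell (9.41%). The counts of each gene list below are to be read beside these shares. Most changes were small: the median log2 fold change was 0.49 among genes that rose and -0.52 among genes that fell, and 727 and 734 of them changed by less than 1.5-fold. At least a 2-fold change was seen in 255 that rose (1.86%) and 257 that fell (1.87%), and an 8-fold change in 23 and 7. In all called genes the control and IL-6 libraries did not overlap, as in 64.8% of all tested genes, called or not. With both number 2 libraries left out 418 rose and 417 fell, with both number 1 libraries left out 339 and 358. Without HET control number 1 the counts were 557 and 646, without HET IL-6 number 1 they were 656 and 669, and without HET IL-6 number 2 they were 657 and 636. Thinning HET IL-6 number 2 to the depth of the other HET libraries left 1165 and 1233.

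**Figure D1:**
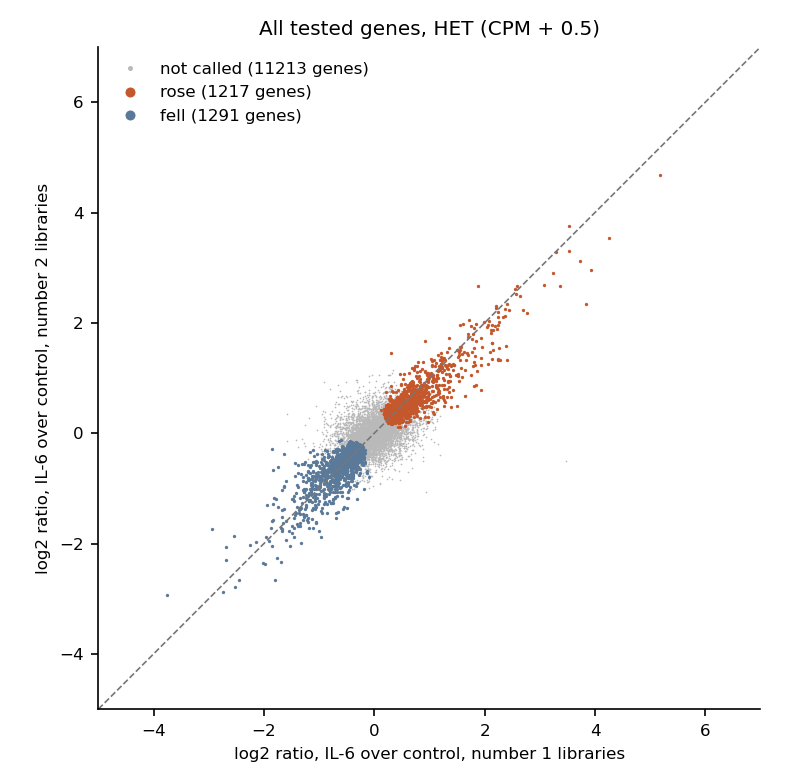
Log2 ratio of IL-6 over control in HET for the number 1 libraries (horizontal axis) and the number 2 libraries (vertical axis), computed on CPM + 0.5, with 1 point a tested gene; orange genes rose, blue genes fell, grey genes were not called, and the dashed line marks equal ratios. The 2 ratios had a Pearson r of 0.774 over 13721 genes, which are not independent. The called genes lie along the diagonal in the upper right and lower left. They were called from these same libraries, so their place is no separate check.

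Among called genes with a mean of at least 5 CPM in a HET group, the largest rise was that of Ccl8 (chromosome 11, 82115185 to 82116799, mm10), a chemokine that draws monocytes, with 0.262 and 0.377 CPM in the control libraries and 26.9 and 21.9 CPM in the IL-6 libraries. Its log2 fold change was 6.22 ± 0.27 (edgeR adjusted p = 1.95e-09), and it was nearly undetected without IL-6. Ltb4r1, the receptor for leukotriene B4, followed with 0.0875 and 0.544 CPM in the control libraries and 10.7 and 11.6 CPM in the IL-6 libraries (5.11 ± 0.32). The chemokine receptor gene Ccr1 (chromosome 9, 123962124 to 123968692, mm10) rose from 5.69 and 5.44 CPM to 71 and 79.1 CPM (3.76 ± 0.14). In each of these 3 genes both IL-6 libraries lay far above both controls, although the choice of the leading genes allowed no overlap. The complement component gene C4b rose from 0.7 and 1.17 CPM to 17.7 and 12.4 CPM (3.97 ± 0.30) and the metalloproteinase inhibitor gene Timp1 from 0.875 and 0.586 CPM to 13 and 10.0 CPM (3.96 ± 0.24). Podoplanin (Pdpn), a mucin-like surface protein, rose from 0.219 and 0.795 CPM to 9.74 and 6.04 CPM (3.91 ± 0.37), with control number 1 below control number 2. Ednrb (chromosome 14, 103814625 to 103844402, mm10), an endothelin receptor gene, rose from 24.5 and 32 CPM to 289.5 and 322 CPM (3.43 ± 0.12). Soat2, which esterifies cholesterol, rose from 2.23 and 3.68 CPM to 17.9 and 18.5 CPM (2.62 ± 0.20). Cd5l, a secreted scavenger protein gene of macrophages, rose from 47.8 and 87.8 CPM to 635 and 769 CPM (3.37 ± 0.37, edgeR adjusted p = 0.0032). Of the other members of the leading 12, Lix1 changed by 3.20 ± 0.17 and Nxpe5 by 3.07 ± 0.12, and Il4ra is described below. C4b has a close copy, C4a, so its reads may be shared.

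The largest fall among genes at that level was that of Nptx1 (chromosome 11, 119538719 to 119547753, mm10), which encodes a pentraxin, with 56.8 and 38.8 CPM in the control libraries and 3.77 and 4.64 CPM in the IL-6 libraries. Its log2 fold change was -3.48 ± 0.31 (edgeR adjusted p = 0.000226). Cx3cr1 (chromosome 9, 119901616 to 120069879, mm10), the fractalkine receptor gene of monocytes and macrophages, fell from 195 and 125 CPM to 30 and 24.9 CPM (-2.55 ± 0.31, edgeR adjusted p = 0.00355), and both IL-6 libraries lay below both controls although the controls differed. Cd207, which encodes the lectin langerin, fell from 7.22 and 3.39 CPM to 0.497 and 0.668 CPM (-3.12 ± 0.50). Olfml3, a secreted glycoprotein gene, fell from 18.5 and 10.1 CPM to 2.74 and 2.43 CPM (-2.48 ± 0.29). Number 1 was the higher control library in all 4 of these genes. Cd300e, an activating receptor of monocytes, fell from 18.3 and 15.8 CPM to 2.94 and 2.07 CPM (-2.82 ± 0.17). The prostaglandin-degrading enzyme gene Hpgd fell from 30.5 and 22.5 CPM to 4.35 and 5.02 CPM (-2.48 ± 0.17). Flt1, a VEGF receptor gene, fell from 9.01 and 9.79 CPM to 1.49 and 2.03 CPM (-2.37 ± 0.19), and the sialic acid hydroxylase gene Cmah from 27.3 and 32.3 CPM to 4.35 and 4.23 CPM (-2.80 ± 0.14). In these 4 genes too, no IL-6 library reached a control library, which the choice of the leading genes required. The remaining members of the leading 12, Apol9b, Ifit3b, Grap2 and Asb2, changed by -2.99, -2.95, -2.54 and -2.51.

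**Figure D2:**
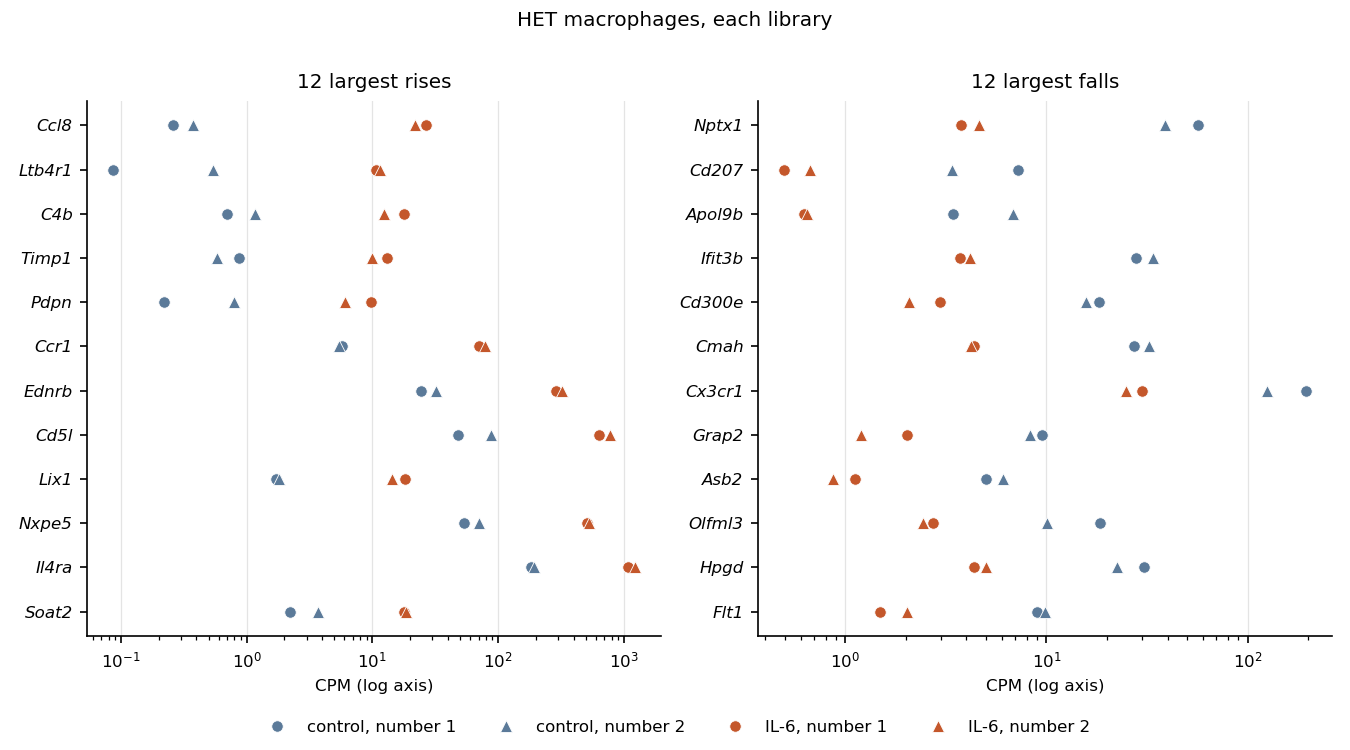
CPM on a log axis in each of the 4 HET libraries for the 12 genes that rose most and the 12 that fell most, among called genes with a mean of at least 5 CPM in a HET group; blue marks control, orange marks IL-6, circles number 1 and triangles number 2. Only genes without overlap between control and IL-6 libraries were taken, so a gap between the blue and the orange points was required of every gene. Ccl8, at the top left, had at most 0.377 CPM in control and at least 21.9 CPM after IL-6. Flt1, at the bottom right, had at least 9.01 CPM in control and at most 2.03 CPM after IL-6.

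Of the genes that rose, 7 had at most 3 reads in both HET controls together, and they are named after their values were seen. Cd38, an ectoenzyme that consumes NAD, had 1 and 1 reads in control and 124 and 145 reads after IL-6, a ratio of 85.9 with a counting interval (95%, exact) of 23.5 to 713. Entpd3, an enzyme that degrades extracellular nucleotides, had 0 reads in both controls and 36 and 75 after IL-6, at least 23.6-fold higher against a floor of 3 counts over the group. The other 5, Cemip, Fpr1, Gabbr2, Mapk13 and the predicted model Gm29686, had 1 to 3 reads over both controls and 22 to 39 over both IL-6 libraries, and 20 of the 22 reads of Fpr1 came from IL-6 number 2. Each of these 5 calls was lost without at least 1 HET library. Intervals and floors cover counting error only.

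In the list of IL-6 pathway genes, 42 were tested: 11 were called higher and 5 lower, and the median was 0.05 against 0.01 over all tested genes. Il4ra, which encodes the IL-4 receptor chain (chromosome 7, 125552120 to 125579474, mm10), was the member that rose most and went from 181 and 193 CPM to 1086 and 1225 CPM (2.63 ± 0.09, edgeR adjusted p = 4.38e-10). Stat3 rose from 187 and 205 CPM to 299 and 303 CPM (0.62 ± 0.08), the IL-21 receptor gene Il21r from 103 and 106 CPM to 162 and 171 CPM (0.67 ± 0.08), and Ptpn1, a phosphatase that dampens cytokine receptors, from 165 and 166 CPM to 269 and 284 CPM (0.74 ± 0.07). All 4 were above both controls in both IL-6 libraries, as was every gene that rose. The IL-6 receptor gene Il6ra fell from 130.3 and 127 CPM to 93.3 and 91.9 CPM (-0.48 ± 0.08). The shared receptor gene Il6st stood at 173 and 185 CPM in the control libraries and 189 and 194 CPM in the IL-6 libraries (0.10 ± 0.08, edgeR adjusted p = 0.426). Socs3, whose promoter holds the STAT site shown above, stood at 215 and 243 CPM in the control libraries and 242 and 262 CPM in the IL-6 libraries (0.14 ± 0.09, edgeR adjusted p = 0.331). Neither passed the test after 2 days. In the whole list 8 to 9 members rose and 3 to 4 fell with any 1 HET library left out, and 7 and 2 without both number 2 libraries.

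The transcript of the cytokine itself rose. Il6 stood at 0.612 and 0.628 CPM in the control libraries and 4.81 and 2.31 CPM in the IL-6 libraries in HET, a log2 fold change of 2.46 ± 0.38 (edgeR adjusted p = 0.000376). It stood at 1.47 and 1.15 CPM in WT control and 0.62 and 0.697 CPM in WT IL-6, where it did not pass (-1.0 ± 0.43, edgeR adjusted p = 0.132). The difference of the responses was 3.47 ± 0.58 (edgeR adjusted p = 0.00272). The level stayed low in all 8 libraries, and the 2 HET IL-6 libraries differed from each other.

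Chemokine genes moved both ways, with 6 of 19 tested members higher and 5 lower. The monocyte chemoattractant genes rose together: Ccl2 went from 500.4 and 552 CPM to 806 and 780.0 CPM (0.59 ± 0.08), Ccl7 from 251 and 271 CPM to 638 and 609 CPM (1.26 ± 0.08) and Ccl12 from 22.5 and 24.5 CPM to 122 and 127 CPM (2.40 ± 0.10). Cxcl10, an interferon-induced T cell attractant, fell from 121 and 122 CPM to 37.1 and 36.7 CPM (-1.72 ± 0.10). Among the 19 chemoattractant receptor genes, 7 rose (3 to 7 with any 1 HET library left out) and 1, Cx3cr1, fell. The monocyte receptor gene Ccr2 stood at 23.3 and 32.9 CPM in the control libraries and 35 and 43.1 CPM in the IL-6 libraries, where it did not pass (0.48 ± 0.18, edgeR adjusted p = 0.0904). Without both number 2 libraries 6 chemokine genes rose and 3 fell, and 4 receptor genes rose and 1 fell. In the leukotriene and prostaglandin pathway 5 of 15 rose and 5 fell: the prostaglandin E2 receptor gene Ptger2 rose from 1.57 and 1.72 CPM to 5.51 and 5.39 CPM (1.72 ± 0.21), while Alox5, the first enzyme of leukotriene synthesis, fell from 21 and 22 CPM to 8.62 and 7.49 CPM (-1.43 ± 0.14).

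Receptors for antibody rose as a group. Of 9 tested Fc receptor genes 7 rose and none fell by edgeR (5 rose without both number 2 libraries), with a list median of 0.58. Fcrls, an Fc receptor-like gene, rose from 274 and 319.5 CPM to 1299 and 1382 CPM (2.18 ± 0.10). The inhibitory receptor gene Fcgr2b (chromosome 1, 170958617 to 170976547, mm10) rose from 62.5 and 71 CPM to 287 and 275 CPM (2.07 ± 0.10). The activating receptor gene Fcgr3 rose from 403 and 376 CPM to 582 and 596 CPM (0.60 ± 0.08) and the high-affinity Fcgr1 from 239.7 and 266 CPM to 367 and 371 CPM (0.55 ± 0.08). In these 4 genes every IL-6 library was above every control, as in every gene that rose. Complement genes rose in 7 of 14 members (3 to 7 with any 1 HET library left out, 3 without both number 2 libraries) and fell in none. Besides C4b they included C1qa, a chain of the initiator C1q, which rose from 589 and 598 CPM to 799.8 and 829 CPM (0.46 ± 0.08).

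Receptors for uptake and recognition were mixed. Efferocytosis and scavenger receptor genes rose in 5 of 16 and fell in 2. The mannose receptor gene Mrc1 rose from 1473 and 1603 CPM to 4260 and 4461 CPM (1.50 ± 0.08) and the scavenger receptor gene Msr1 from 429 and 396 CPM to 738 and 791 CPM (0.89 ± 0.13). Axl, a receptor for dying cells, fell from 236 and 178 CPM to 83.2 and 55.3 CPM (-1.59 ± 0.18), and the haptoglobin-haemoglobin receptor gene Cd163 from 43.1 and 41 CPM to 18.6 and 22.7 CPM (-1.02 ± 0.10). In a fit of the HET libraries alone Axl was not called (edgeR adjusted p = 0.0814). Lectins and paired receptors rose in 10 of 27 and fell in 6, with Clec4n (Dectin-2) going from 6.17 and 4.89 CPM to 27.8 and 21.5 CPM (2.15 ± 0.15) and the inhibitory receptor gene Cd300a from 131 and 129 CPM to 55.2 and 51 CPM (-1.29 ± 0.09). Of the 8 tested Ms4a genes 4 rose and 2 fell (3 to 4 and 1 to 2 with any 1 HET library left out), and Ms4a6d went from 133 and 141 CPM to 634 and 653 CPM (2.23 ± 0.08) while Ms4a4c went from 18 and 25.7 CPM to 6.84 and 6.12 CPM (-1.77 ± 0.20). Members of the Ms4a, paired receptor and lectin families resemble each other in sequence, so reads may be shared between them.

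Lysosomal genes rose in 15 of 33 tested members and fell in none, with a median of 0.24 (7 to 10 rose with any 1 HET library left out, 5 without both number 2 libraries). The cathepsin genes Ctsl, Ctsc, Ctsh and Ctsb, which encode proteases of the lysosome, changed by 1.02 ± 0.08, 0.73 ± 0.10, 0.69 ± 0.09 and 0.61 ± 0.09. Ctsc rose from 529 and 470.5 CPM to 852 and 808 CPM, and the exons of Ctsl and Ctsb are overlapped by other genes over 26.8% and 12.8% of their bases. The lysosomal membrane gene Lamp1 stood at 1865 and 1906 CPM in the control libraries and 1972 and 1995 CPM in the IL-6 libraries and did not pass (0.07 ± 0.08, edgeR adjusted p = 0.578). Genes of glycolysis rose in 10 of 20 and fell in none, with a median of 0.28 (5 to 7 rose with any 1 HET library left out, 3 without both number 2 libraries). The glucose transporter gene Slc2a1 rose from 65.3 and 64.6 CPM to 105 and 108 CPM (0.71 ± 0.09). The lactate exporter gene Slc16a3 rose from 29.1 and 24.8 CPM to 51.3 and 48.3 CPM (0.88 ± 0.10). The pyruvate dehydrogenase kinase gene Pdk1 rose from 88.2 and 83.5 CPM to 120.4 and 127 CPM (0.53 ± 0.08). Of 13 hypoxia-inducible genes 5 rose and 1 fell (4 to 5 and 0 to 1 with any 1 HET library left out), with Ndrg1 going from 129 and 158 CPM to 337 and 371 CPM (1.30 ± 0.10). Oxidative phosphorylation genes had 0 of 27 called by edgeR, with a median of -0.05, and 0 at an unadjusted p under 0.05 or by DESeq2. Cytosolic ribosomal protein genes had 0 of 40 called, with a median of 0.08, and 2 higher at an unadjusted p under 0.05 and 0 by DESeq2. In the other lists of which none is said to rise or to fall in HET, 0 were called that way by DESeq2. In those lists 0 reached an unadjusted p under 0.05 by edgeR that way, except 1 lower in the integrated stress response and 2 lower in serine metabolism.

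Genes of the extracellular matrix split. Of 30 tested members 12 rose and 9 fell. Osteopontin (Spp1) rose from 2429 and 2579 CPM to 10796 and 9416 CPM (2.01 ± 0.09) and the protease gene Mmp19 from 9.14 and 9.54 CPM to 33.4 and 37.1 CPM (1.92 ± 0.10), with 18.8% and 28.3% of their exon bases overlapped by other genes. Col4a1 (chromosome 8, 11198423 to 11312826, mm10), a basement membrane collagen, fell from 54.5 and 49.1 CPM to 11.9 and 12.2 CPM (-2.11 ± 0.14). As in every called gene, these levels did not overlap with control. In this list 9 to 10 rose and 4 to 5 fell with any 1 HET library left out, and 9 and 4 without both number 2 libraries. Integrin genes rose in 3 of 15 and fell in 5 (2 to 3 and 2 to 4 with any 1 HET library left out). In WT 10 of the 15 rose and 1 fell. The difference of responses was called lower in HET in 7, and in 3 to 10 with any 1 of the 8 libraries left out. The dendritic cell and macrophage integrin gene Itgax rose from 8.49 and 6.36 CPM to 28.6 and 23.3 CPM (1.80 ± 0.14), while Itgb7 fell from 88.8 and 86.1 CPM to 33.2 and 31.4 CPM (-1.44 ± 0.08) and Itga4, its partner chain, from 240.2 and 201 CPM to 138 and 143 CPM (-0.64 ± 0.11).

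Type I interferon-stimulated genes, which encode antiviral proteins, fell nearly as a block: 43 of 48 tested members fell, none rose, and the median was -0.73. Without both number 2 libraries 29 fell, and leaving out any 1 HET library left 35 to 39. Ifit3 fell from 162 and 196 CPM to 39.5 and 38.1 CPM (-2.20 ± 0.12, edgeR adjusted p = 1.94e-08) and Ifit2 from 269.8 and 317 CPM to 94.9 and 89.9 CPM (-1.67 ± 0.12). Rsad2, which encodes viperin, fell from 253 and 277 CPM to 108 and 92.3 CPM (-1.40 ± 0.11) and Cmpk2, its neighbour, from 104 and 118 CPM to 39.9 and 36.5 CPM (-1.54 ± 0.09). In all 4 genes the controls lay above both IL-6 libraries, as in every gene that fell. The ubiquitin-like Isg15 fell from 135 and 153 CPM to 72.6 and 64.5 CPM (-1.07 ± 0.10) and the regulator gene Irf7 from 371 and 449 CPM to 210.1 and 193 CPM (-1.03 ± 0.11). In WT 45 of the 48 fell and 1 rose, where 10.4% of all tested genes fell and 7.91% rose. The interferon-inducible GTPases, which attack the vacuoles of intracellular microbes, fell in 14 of 14 members, 8 of the GBP and 6 of the IRG family, with a median of -1.11 (10 fell without both number 2 libraries). Gbp9 fell from 79 and 92.5 CPM to 33.2 and 32.5 CPM (-1.39 ± 0.10), Gbp3 from 43.2 and 47.3 CPM to 20.3 and 19.9 CPM (-1.17 ± 0.11), Gbp2 from 68.3 and 76.3 CPM to 35.9 and 33.8 CPM (-1.05 ± 0.10) and Iigp1 from 11.5 and 18.1 CPM to 3.9 and 4.5 CPM (-1.80 ± 0.19). GBP genes are close copies of each other, and reads may be split between them.

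Antigen presentation genes fell in part. In MHC class I 11 of 23 members fell and none rose, with a median of -0.26, but 6 to 10 fell with any 1 HET library left out and 1 without both number 2 libraries. The peptide transporter gene Tap1 fell from 158 and 159.6 CPM to 121 and 117 CPM (-0.42 ± 0.08) and the immunoproteasome gene Psmb9 from 53.3 and 59.5 CPM to 37.1 and 37 CPM (-0.60 ± 0.09). The classical heavy chain gene H2-K1 stood at 1198 and 1404 CPM in the control libraries and 1211 and 1206 CPM in the IL-6 libraries (-0.11 ± 0.10, edgeR adjusted p = 0.508). H2-D1 stood at 1759 and 1988 CPM in the control libraries and 1835 and 1815 CPM in the IL-6 libraries (-0.04 ± 0.10, edgeR adjusted p = 0.853). In WT 10 of the 11 heavy chain and B2m genes fell, against 4 in HET, and the difference of responses was called in 6. It was 0.63 ± 0.14 for H2-K1 and 0.60 ± 0.14 for H2-D1. Both calls were lost without HET control number 1, at 0.52 and 0.51 (edgeR adjusted p = 0.108 and 0.148), and without either HET IL-6 library (0.066 to 0.103). That of H2-D1 was also lost without WT IL-6 number 1 (0.0765). Over all 23 members the difference was called higher in HET in 8, and in 1 to 7 with any 1 of the 8 libraries left out. In MHC class II and co-stimulation 6 of 16 fell and 1 rose, with 2 to 6 that fell with any 1 HET library left out and 2 without both number 2 libraries. Icosl, the ICOS ligand gene, fell from 114 and 120.3 CPM to 52.1 and 60.7 CPM (-1.05 ± 0.13), while Cd86 rose from 27.9 and 27.7 CPM to 51.4 and 38.5 CPM (0.68 ± 0.12).

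Genes of cell division fell. Of 32 mitosis genes 27 fell and none rose (median -0.47), and of 32 DNA replication genes 19 fell and none rose (median -0.35). The changes were small, from -0.87 to -0.07 in mitosis genes and from -0.62 to -0.05 in replication genes. The kinase gene Cdk1, which starts mitosis, fell from 135 and 127 CPM to 98.1 and 90.9 CPM (-0.47 ± 0.08), the topoisomerase gene Top2a from 650.4 and 593 CPM to 426 and 404 CPM (-0.58 ± 0.11) and the cyclin gene Ccnb2 from 106 and 109 CPM to 71.6 and 67.4 CPM (-0.62 ± 0.08). Kif23, a motor of cytokinesis, fell from 159 and 152 CPM to 86.5 and 83.8 CPM (-0.87 ± 0.08), and the proliferation marker gene Mki67 from 975 and 930.4 CPM to 667 and 677 CPM (-0.50 ± 0.09). For replication, Mcm6 of the DNA helicase fell from 374 and 354 CPM to 257 and 258 CPM (-0.50 ± 0.08) and Mcm10 from 71.2 and 68.9 CPM to 46.7 and 44.8 CPM (-0.62 ± 0.08). The sliding clamp gene Pcna stood at 427 and 427 CPM in the control libraries and 353 and 387 CPM in the IL-6 libraries and did not pass (-0.21 ± 0.10, edgeR adjusted p = 0.178). In WT 0 mitosis genes rose and 1 fell, 5 replication genes rose and 0 fell, and the difference of responses was called lower in HET in 23 and 18 members. Leaving out HET control number 1 left 11 mitosis and 8 replication genes that fell, leaving out HET IL-6 number 2 left 14 and 11, and leaving out HET IL-6 number 1 left 20 and 10. Without both number 2 libraries 9 and 5 fell, and without both number 1 libraries 2 and 1. The called differences moved further. In mitosis genes leaving out HET control number 1 or 2 gave 2 or 13 in place of 23. Leaving out HET IL-6 number 1 or 2 gave 7 or 8, WT IL-6 number 1 gave 10 and WT control number 1 gave 15. In replication genes the count went from 18 to 5 with HET control number 1 left out, and to 11 or 7 with HET IL-6 number 1 or 2 left out. Without both HET number 1 libraries 0 were called by edgeR in either list, and without both number 2 libraries 3 and 5. Among G1 cyclins and inhibitors of cyclin-dependent kinases 2 of 13 rose and 4 fell (1 and 2 to 3 with any 1 HET library left out). The inhibitor gene Cdkn1a stood at 419.6 and 483 CPM in the control libraries and 408 and 428 CPM in the IL-6 libraries (-0.11 ± 0.09, edgeR adjusted p = 0.431).

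Genes of the integrated stress response, which cells use when amino acids run short, rose in 12 of 15 members and fell in none, with a median of 0.79 (8 rose without both number 2 libraries). The asparagine synthetase gene Asns (chromosome 6, 7675169 to 7693254, mm10) rose from 45.3 and 58.4 CPM to 131 and 119.9 CPM (1.27 ± 0.12, edgeR adjusted p = 3.37e-06), Atf5 from 12.3 and 11.3 CPM to 43.6 and 40.0 CPM (1.83 ± 0.12) and Trib3, a pseudokinase that feeds back on ATF4, from 12.8 and 17.7 CPM to 56.2 and 50.0 CPM (1.80 ± 0.19). Both IL-6 libraries lay above both controls in each, as in every gene that rose. In WT these 3 genes changed by -0.68, -0.02 and -1.03, and the differences of 1.95 ± 0.16, 1.84 ± 0.17 and 2.82 ± 0.28 were called (edgeR adjusted p = 7.02e-05, 9.13e-05 and 0.000344). Over the list 1 rose and 8 fell in WT.

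Enzymes and transporters for amino acids rose in part. In serine and one-carbon metabolism 5 of 10 rose and none fell. Shmt2, which makes glycine in mitochondria, rose from 78.8 and 87 CPM to 131 and 138 CPM (0.69 ± 0.09), Mthfd2 of the folate cycle from 88.4 and 102 CPM to 152 and 152 CPM (0.68 ± 0.10) and Aldh1l2, another mitochondrial folate enzyme, from 1.79 and 2.72 CPM to 9.57 and 7.64 CPM (1.91 ± 0.24), although other genes overlap 14.1% of its exon bases. Psat1 of serine synthesis stood at 97.8 and 88.3 CPM in the control libraries and 92.6 and 89.6 CPM in the IL-6 libraries and did not pass (-0.03 ± 0.09, edgeR adjusted p = 0.866). Amino acid transporter genes rose in 6 of 14 and fell in 1 (5 to 6 and 0 to 1 with any 1 HET library left out). Slc7a5, which imports large neutral amino acids, rose from 81.7 and 88.1 CPM to 146 and 142 CPM (0.76 ± 0.10) and Slc1a4 from 11.3 and 14.7 CPM to 41 and 36.6 CPM (1.57 ± 0.15). Cytosolic aminoacyl-tRNA synthetase genes, which load amino acids onto tRNA, rose in 13 of 20 and fell in none (6 to 9 rose with any 1 HET library left out, 2 without both number 2 libraries and 0 without both number 1 libraries). Sars rose from 172 and 197 CPM to 304 and 289.8 CPM (0.69 ± 0.12) and Aars from 288 and 306 CPM to 453 and 446 CPM (0.60 ± 0.10), with 15.1% of the exon bases of Aars overlapped. In WT none of the synthetases rose and 1 fell. ER chaperone genes rose in 4 of 17 (1 to 2 with any 1 HET library left out and 0 without both number 2 libraries), and the chaperone gene Hspa5 stood at 1757 and 1734 CPM in the control libraries and 1974 and 1827 CPM in the IL-6 libraries (0.12 ± 0.09, edgeR adjusted p = 0.43).

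Genes of sterol synthesis responded differently in the genotypes. Of 25 sterol synthesis genes 4 rose and none fell in HET (median 0.18), whereas 23 fell in WT (median -0.96) and the difference of responses was called higher in HET in 23 (22 to 23 with any 1 of the 8 libraries left out). The 4 calls in HET were not stable: 0 remained without HET control number 1, HET IL-6 number 1 or HET IL-6 number 2, and 2 without both number 2 libraries. Among fatty acid synthesis and handling genes 8 of 22 rose and 1 fell (4 to 6 rose with any 1 HET library left out, 4 without both number 2 libraries). The synthase gene Fasn rose from 227 and 253 CPM to 355 and 358 CPM (0.57 ± 0.11), the desaturase gene Scd2 from 194 and 255 CPM to 657 and 532 CPM (1.40 ± 0.23) and the fatty acid binding protein gene Fabp5 from 78 and 74.9 CPM to 254 and 253 CPM (1.73 ± 0.20). The lipoprotein lipase gene Lpl fell from 3328 and 3321 CPM to 2168 and 2036 CPM (-0.66 ± 0.09). In WT Fasn (-0.77) and Scd2 (-2.09) fell, from control levels of 299 and 241 CPM for Fasn and 679 and 471 CPM for Scd2. The cholesterol exporter gene Abca1, a target of the LXR receptors, stood at 268 and 347 CPM in the control libraries and 439 and 449 CPM in the IL-6 libraries (0.53 ± 0.13, edgeR adjusted p = 0.0148). Its call was lost without HET control number 1 (0.36, edgeR adjusted p = 0.18), either HET IL-6 library (0.0546 and 0.0777) or either WT control library (0.0917 and 0.092). Of the 9 LXR and efflux genes 4 rose in HET (2 to 4 with any 1 HET library left out), and 5 fell in WT.

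**Figure D3:**
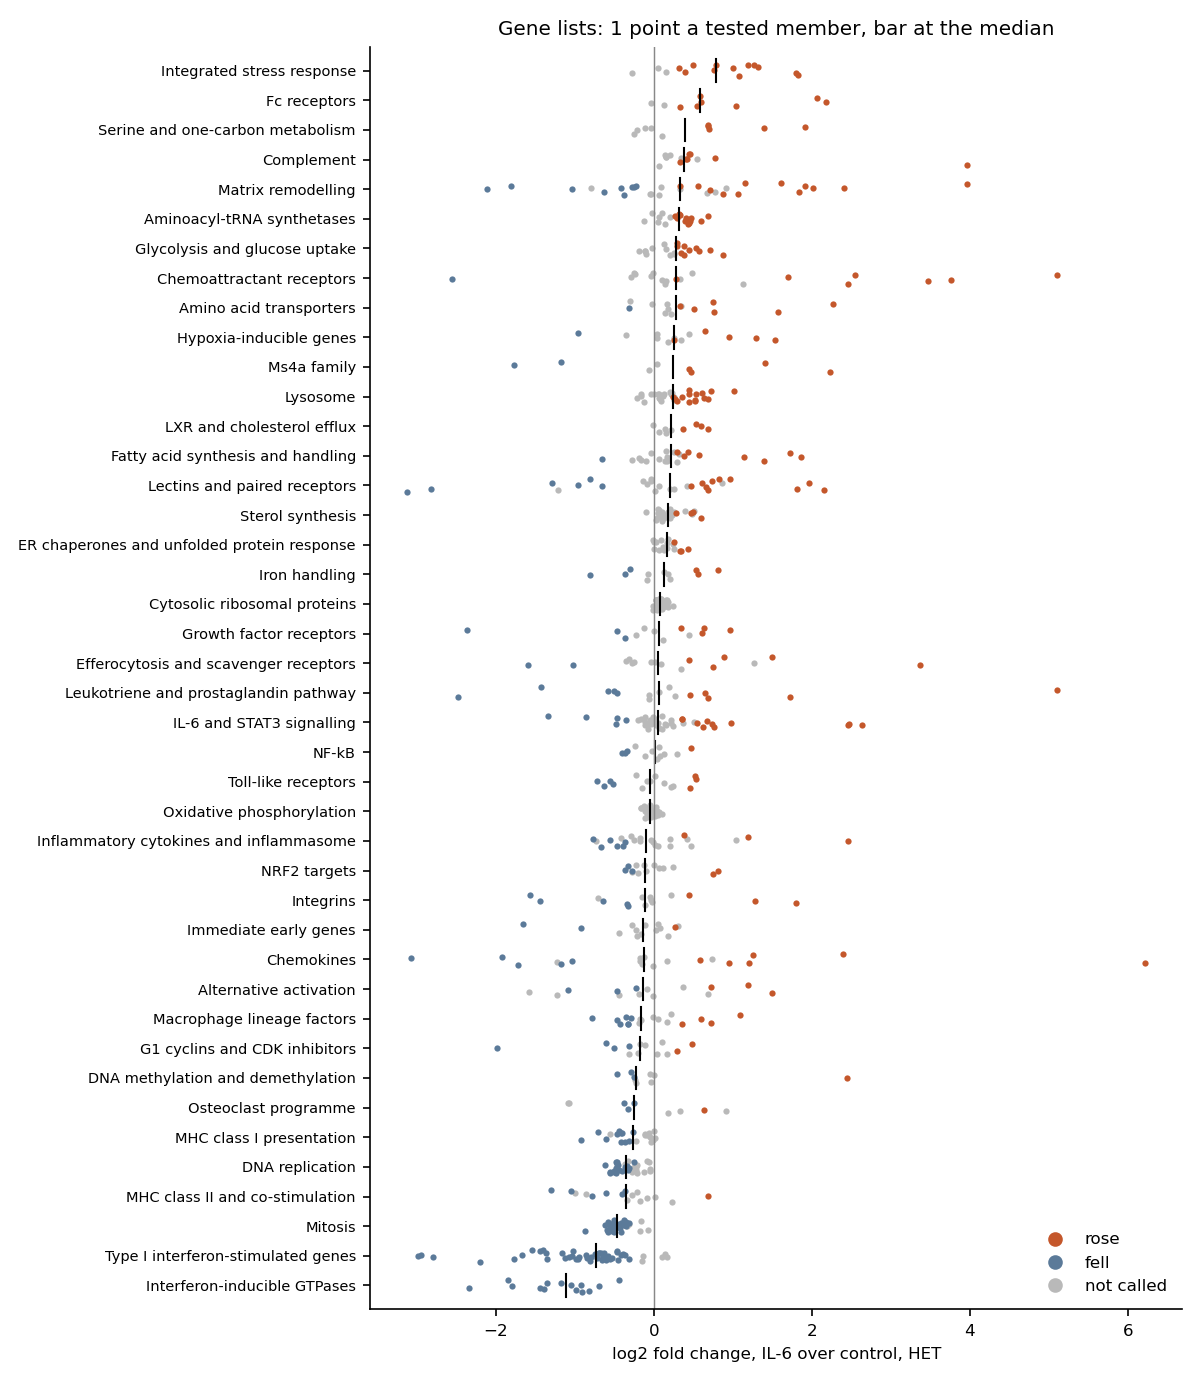
Log2 fold change of IL-6 over control in HET for each tested member of 42 gene lists, ordered by list median (black bar); orange members rose, blue members fell and grey members were not called. Interferon-inducible GTPases (median -1.11), interferon-stimulated genes and mitosis genes lie at the bottom, and the integrated stress response (median 0.79) and Fc receptors at the top.

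Inflammatory cytokine and inflammasome genes rose in 3 of 24 and fell in 6, but 2 to 3 rose and 1 to 4 fell with any 1 HET library left out, and 3 and 1 without both number 2 libraries. The IL-1 receptor antagonist gene Il1rn rose from 43.5 and 63.7 CPM to 113 and 131 CPM (1.19 ± 0.15; edgeR adjusted p = 0.0564 in a fit of the HET libraries alone) and the inflammasome sensor gene Nlrp3 fell from 527 and 565 CPM to 355 and 385 CPM (-0.56 ± 0.09). Il1b stood at 148 and 219 CPM in the control libraries and 182 and 189 CPM in the IL-6 libraries (0.02 ± 0.17, edgeR adjusted p = 0.959). Tnf stood at 608 and 761 CPM in the control libraries and 507 and 536 CPM in the IL-6 libraries (-0.39 ± 0.12, edgeR adjusted p = 0.0426). Il10, an anti-inflammatory cytokine, stood at 90.9 and 129.7 CPM in the control libraries and 85.4 and 74.4 CPM in the IL-6 libraries (-0.47 ± 0.14, edgeR adjusted p = 0.034). These last 2 calls were lost without HET control number 2, at -0.22 (edgeR adjusted p = 0.404) for Tnf and -0.19 (edgeR adjusted p = 0.418) for Il10. They were also lost without either HET IL-6 or either WT control library (edgeR adjusted p = 0.127 to 0.247 for Tnf and 0.0523 to 0.229 for Il10). Without WT IL-6 number 1 or 2 the call of Il10 was lost too (0.0619 and 0.0609). Of 15 Toll-like receptor genes and partners 3 rose and 4 fell (1 and 2 without both number 2 libraries), with Tlr1 going from 56.2 and 58.4 CPM to 83.4 and 80.6 CPM (0.52 ± 0.08) and Tlr2 from 344 and 348 CPM to 241 and 240.5 CPM (-0.52 ± 0.08). Immediate early genes fell in 2 of 14 and rose in 1 (0 to 2 rose with any 1 HET library left out). These counts lie near the shares of all tested genes, of which 8.87% rose and 9.41% fell, as does the number of inflammatory genes that rose. In WT 11 of the 14 immediate early genes fell and 1 rose. The difference of responses was called higher in HET in 6 of them, and in 2 to 8 with any 1 of the 8 libraries left out. Nr4a1 fell from 99.3 and 107 CPM to 59.1 and 50.8 CPM (-0.92 ± 0.10). Alternative activation genes rose in 3 of 14 and fell in 3 (1 to 2 fell with any 1 HET library left out). Arg1 was close to the floor in every HET library, at 0.219 and 0.293 CPM in the control libraries and 0.332 and 0.466 CPM in the IL-6 libraries, and did not pass (edgeR adjusted p = 0.499).

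Transcription factors of the macrophage lineage rose in 4 of 18 and fell in 7, but 3 to 4 rose and 2 to 4 fell with any 1 HET library left out, and 2 and 1 without both number 2 libraries. Tfec rose from 19.2 and 21.9 CPM to 42.6 and 44.7 CPM (1.09 ± 0.09) and Klf4 from 47.8 and 45.6 CPM to 84.6 and 70.5 CPM (0.73 ± 0.11), while Id3 fell from 252 and 268 CPM to 134 and 169 CPM (-0.78 ± 0.10). The master regulator gene Spi1 stood at 261 and 265 CPM in the control libraries and 263 and 283 CPM in the IL-6 libraries (0.05 ± 0.08, edgeR adjusted p = 0.707). Iron genes rose in 3 of 11 and fell in 3 (2 to 3 and 1 to 2 with any 1 HET library left out). Slc40a1, the iron exporter ferroportin, fell from 77.6 and 58.1 CPM to 42.4 and 35.5 CPM (-0.81 ± 0.12), the importer gene Slc11a2 rose from 95.8 and 99.1 CPM to 144 and 144 CPM (0.56 ± 0.08), and the haem-degrading enzyme gene Hmox1 rose from 386 and 381 CPM to 629 and 719 CPM (0.81 ± 0.09). In the DNA methylation list 1 of 9 rose and 3 fell (0 to 1 and 1 with any 1 HET library left out). Of all tested genes 8.87% rose and 9.41% fell. Uhrf1, which guides DNMT1 to replicated DNA, fell from 201 and 186 CPM to 144 and 138 CPM (-0.46 ± 0.08). The maintenance methyltransferase gene Dnmt1 stood at 351 and 325 CPM in the control libraries and 282 and 286 CPM in the IL-6 libraries (-0.25 ± 0.08, edgeR adjusted p = 0.0359). Its call was lost without any 1 of the HET libraries (-0.31 to -0.19, edgeR adjusted p = 0.0802 to 0.335). Tet2 stood at 79.1 and 78.8 CPM in the control libraries and 75.3 and 79.5 CPM in the IL-6 libraries (-0.03 ± 0.09, edgeR adjusted p = 0.881). Dnmt3l, a cofactor without catalytic activity, was the member that rose, from 0.0437 and 0.209 CPM to 1.04 and 0.506 CPM (2.45 ± 0.71, edgeR adjusted p = 0.0264). It was near the floor in control and called neither without HET control number 1 (1.77, edgeR adjusted p = 0.24) nor without HET IL-6 number 1 (1.95, edgeR adjusted p = 0.178).

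The responses of the 2 genotypes were compared by the difference itself. Of the 1217 genes that rose in HET 502 also rose in WT, 76 fell in WT and 639 were not called there. Of the 1291 that fell 508, 36 and 747 fell, rose and were not called in WT. Called there or not, the sign of the change in WT was the same in 903 of the 1217 and in 961 of the 1291. A gene not called in WT may thus still have responded there. The difference of responses passed the test in 1114 genes (8.12%), 620 higher (4.52%) and 494 lower (3.6%) in HET. With HET control number 1 left out 304 differences were called, and with HET control number 2 left out 687. Leaving out HET IL-6 number 1 or 2 gave 419 or 472. Leaving out WT IL-6 number 1 gave 623, WT control number 1 gave 740 and WT control number 2 gave 2123. With all libraries the difference was called in 293 of the genes that rose in HET, 268 higher and 25 lower in HET. It was called in 333 of those that fell, 310 lower and 23 higher in HET. Among called genes with a mean of at least 5 CPM in any of the 4 groups, predicted models left out, the most positive difference was that of Scd1, a desaturase, at 10.6 and 12.7 CPM in the control libraries and 52.9 and 32.6 CPM in the IL-6 libraries in HET and 68.4 and 36.2 CPM in WT control and 5.71 and 7.82 CPM in WT IL-6. Its difference of 4.83 ± 0.63 (edgeR adjusted p = 0.0154) was lost as a call without HET control number 1 (4.71, edgeR adjusted p = 0.107), HET control number 2 (4.97, 0.068), WT IL-6 number 1 (4.60, 0.126) or WT IL-6 number 2 (5.05, 0.0739). The most negative difference at that level was that of Cd207 (-5.96 ± 0.71, edgeR adjusted p = 0.00103), with 0.478 and 1.32 CPM in WT control and 8.23 and 4.39 CPM in WT IL-6. Olfml3 followed (-4.14 ± 0.41, edgeR adjusted p = 0.000318), with 2.87 and 4.1 and then 12.7 and 9.11 CPM. In both genes HET began above WT in control and ended below it after IL-6. The integrin gene Itgal stood at 67.9 and 40.1 CPM in the control libraries and 18.9 and 17.6 CPM in the IL-6 libraries in HET and rose in WT from 15.1 and 22.4 to 63.7 and 61 CPM (-3.30 ± 0.38). Without WT IL-6 number 1 that difference was -3.27 (edgeR adjusted p = 0.0695).

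**Figure D4:**
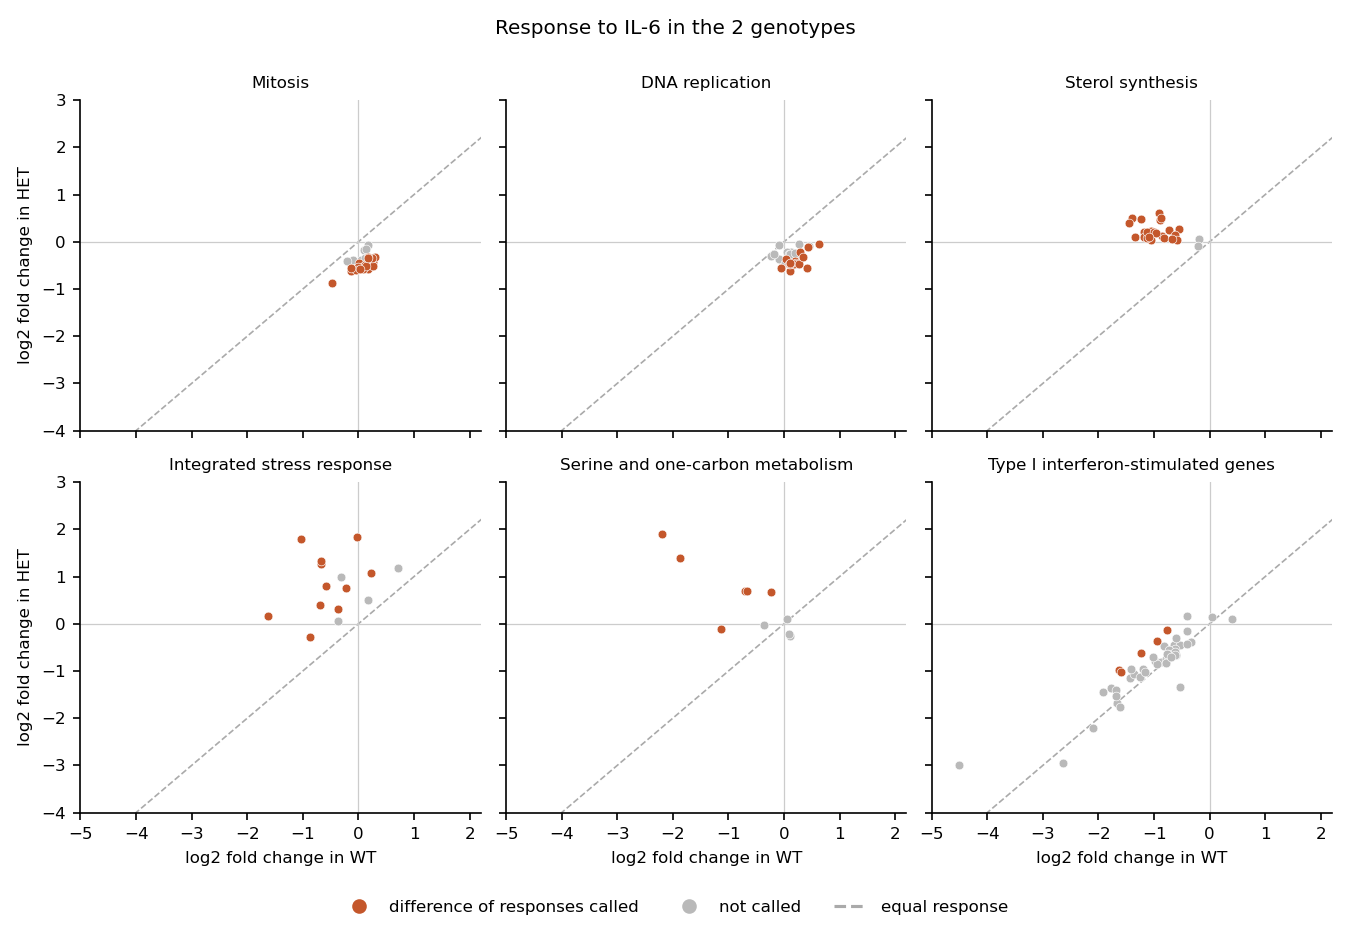
Log2 fold change of IL-6 over control in WT (horizontal axis) and in HET (vertical axis) for the members of 6 gene lists, with the dashed line at equal responses; orange members had a called difference of responses and grey members did not. Mitosis and replication members lie below the line, sterol, stress response and serine members mostly above it, and interferon-stimulated genes close to it.

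The cells carried the markers of macrophages in all 4 HET libraries. The 10 macrophage markers summed to 15007 and 14994 CPM in control and 16968 and 17492 CPM after IL-6. Of these 10 genes 5 rose and 1 fell, and Mrc1 alone rose by more CPM than the sum. Monocyte markers summed to 126 and 144 CPM and then 97 and 95.8 CPM. Most of that sum was Nr4a1, named above with the immediate early genes. It was the only 1 of 6 tested monocyte markers that fell, and none rose. Ccr2 lay higher in both IL-6 libraries but did not pass, so the sum does not describe the list as a whole. Neutrophil markers summed to 20.6 and 20 CPM and then 32.3 and 26.3 CPM. Endothelial markers summed to 87.7 and 97.9 CPM in control and 139 and 139.7 CPM after IL-6, and megakaryocyte markers to 122 and 132 CPM and 272 and 296 CPM, with 1 of 5 tested members higher. Stromal markers summed to at most 5.93 CPM. The defining genes Pax5 of B cells, Cd3e of T cells, Ncr1 of NK cells, Fcer1a of mast cells, Gp1bb of megakaryocytes and Plin1 of adipocytes had no reads in any HET library. Other members of these lists did have reads, so the zeros do not show that the cell types were absent. B cell markers summed to 2.93 and 3.31 CPM in control and 3.44 and 4.5 CPM after IL-6. T and NK cell markers summed to 2.06 and 2.22 CPM and then 3.9 and 1.72 CPM. Mast cell and basophil markers summed to 2.27 and 3.72 CPM and then 3.4 and 3.4 CPM, and adipocyte markers to 3.11 and 2.68 CPM and then 6.09 and 6.4 CPM. The part of other cell types in the responses was not tested. In bulk RNA fewer cells of a type and less RNA per cell cannot be told apart.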

How the data were processed

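RNA of 8 macrophage libraries was sequenced with a stranded polyadenylated RNA kit, per the labels' protocols. The values are raw gene counts that the authors deposited for 55376 genes. featureCounts 1.6.2, STAR 2.7.9a, SAMtools 1.9, fastp 0.12.4 and build mm10 are listed in the processing notes of the submitters. The strand setting of the counting is not given in the sources used here, so genes with overlapping exons are uncertain. Coordinates matched annotation release M21 for 98% of genes, and 25 of 26 symbols turned into dates were restored.

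Genes were filtered with filterByExpr at a minimum count of 10, which left 13721. All 8 libraries were scaled by TMM and fitted with 4 group means and 4 residual degrees of freedom by edgeR 4.0.16 in R 4.3.3 (quasi-likelihood test, robust, 2-sided), with p-values adjusted over all tested genes by the Benjamini-Hochberg method. The spread is shared by all groups. No pair of libraries agreed within sampling noise (chi-square per gene 6.43 for the HET control pair, 6.82 for the HET IL-6 pair). The WT pairs differed more, at 18.5 for control and 12.7 for IL-6. Their median absolute log2 differences were 0.182 and 0.16, against 0.105 and 0.0892 in HET. The shared spread may therefore not fit each genotype, and may be too narrow for the calls in WT. The script was tested on simulated counts. Alternatives were DESeq2 1.42.0, other scalings and filters, libraries left out, a replicate block, HET alone, thinning and offsets for GC content and length.

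Members, lists, motifs and the naming rule were chosen with earlier results of these data known. Named were the 12 largest rises and the 12 largest falls among called genes with a mean of at least 5 CPM in a HET group, no overlap and no predicted model. The rule also took fixed anchor genes, up to 4 members of each list with the smallest p, and the 8 largest called differences each way among genes with a mean of at least 5 CPM in any group, predicted models left out. Of the 42 lists those on NF-kB, NRF2 targets, growth factor receptors and osteoclasts are shown in the plot of lists only. Some genes taken by the rule are not reported here.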

Additional observations from a re-analysis of the deposited data

Results flagged for a closer look

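Of the genes named in the results or in the other observations, 63 had a response to IL-6 that differed between HET and WT by the test of the difference itself (edgeR adjusted p under 0.05), 35 with a higher and 28 with a lower value in HET. The figure after each gene is the log2 fold change in HET minus that in WT.

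The values higher in HET were those of Scd1 (4.83), Aldh1l2 (4.11), Cemip (3.75), Scd2 (3.49), Il6 (3.47), Phgdh (3.28), Trib3 (2.82), Acss2 (2.60), Gpr162 (2.28), Kit (2.24), Slc1a4 (2.13), Soat2 (1.96), Asns (1.95), Atf5 (1.84), Ptger2 (1.76), Slc7a5 (1.44), Fabp5 (1.42), Abca1 (1.39), Shmt2 (1.35), Fasn (1.34), Klf4 (1.11), Sars (1.07), Ednrb (0.93), Mthfd2 (0.92), Aars (0.81), Cd86 (0.81), Fcgr2b (0.77), Ccl7 (0.68), H2-K1 (0.63), H2-D1 (0.60), Ccl2 (0.57), Mrc1 (0.57), Irf7 (0.56), Tap1 (0.42) and Il6st (0.38).

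The values lower in HET were those of Cd207 (-5.96), Olfml3 (-4.14), Itgal (-3.30), Cx3cr1 (-3.05), Nptx1 (-2.97), Cd34 (-2.63), Dmpk (-2.57), Flt1 (-2.45), Col4a1 (-2.09), Cd300e (-1.55), Grap2 (-1.40), Icosl (-1.18), Il1b (-1.16), Hpgd (-0.97), Cxcl10 (-0.94), Itgb7 (-0.87), Top2a (-0.76), Itgax (-0.76), Mcm10 (-0.73), Cdk1 (-0.69), Msr1 (-0.69), Ctsl (-0.66), Mki67 (-0.63), Mcm6 (-0.62), Uhrf1 (-0.56), Ccnb2 (-0.49), Tlr2 (-0.41) and Kif23 (-0.40).

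Leaving out each of the 8 libraries in turn kept 35 of these calls, and 28 were lost without at least 1 library. The number is over the whole set of libraries, WT included, since all share 1 estimate of the spread. For the calls that were lost the weakest result is given, as the difference and its edgeR adjusted p. Without HET IL-6 number 1 it was 0.57 (0.0764) for Cd86 and 0.38 (0.173) for Tap1. Without HET IL-6 number 2 it was -0.46 (0.11) for Ccnb2 and -1.0 (0.156) for Grap2. Without HET control number 1 it was 0.50 (0.0846) for Ccl2, 2.86 (0.197) for Cemip, 1.45 (0.0602) for Fabp5, 0.51 (0.148) for H2-D1, 0.52 (0.108) for H2-K1, 0.34 (0.246) for Il6st, 0.43 (0.226) for Irf7, -0.54 (0.256) for Itgax, -0.37 (0.216) for Kif23, -0.59 (0.0803) for Mki67, 0.51 (0.0853) for Mrc1, -0.42 (0.162) for Tlr2, -0.69 (0.0718) for Top2a and -0.50 (0.0731) for Uhrf1. Without WT IL-6 number 1 it was -2.87 (0.111) for Cx3cr1, 1.92 (0.0971) for Gpr162, -0.69 (0.167) for Hpgd, -3.27 (0.0695) for Itgal, -0.58 (0.175) for Msr1, 2.98 (0.0707) for Phgdh and 4.60 (0.126) for Scd1. Without WT control number 1 it was 1.38 (0.0505) for Abca1, -1.02 (0.25) for Il1b and -3.13 (0.0896) for Nptx1.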

How the results depend on the processing

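Of the 252 tested genes that the naming rule took, 199 were called. Settings that left out 2 libraries at once aside, 149 kept their call under every setting in which they had an adjusted p. So did 75 of the 84 called with at least a 2-fold change. Some settings did not test every one of these genes. Without both HET number 1 libraries 79 of the 199 calls were lost, without both number 2 libraries 64. No direction reversed. Leaving out each library in turn, the genes higher ranged from 557 to 1493, those lower from 636 to 1568, those changed at least 2-fold from 387 to 529 and the called differences from 304 to 2123. The low ends came from HET control number 1 left out, except 636 from HET IL-6 number 2. Fitted alone, the HET libraries gave 1904 higher and 2041 lower. Without both HET number 1 libraries 339 rose, 358 fell, 345 changed at least 2-fold and 188 differences were called, and without both number 2 libraries 418, 417, 403 and 428, both chosen after the data were seen. GC and length offsets gave 1697 higher, 1866 lower and 1751 differences. Scaling to total counts gave 993 and 1554, and 39% of calls were then higher, against 48.5%. The causes were not tested.

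The replicate block within genotype gave 826 higher, 901 lower, 490 changed at least 2-fold and 506 differences. With 2 pairs the shared numbers do not establish a pairing: differences between numbers 1 and 2 correlated between treatments at 0.152 in HET and -0.113 in WT, over genes. Thinning HET IL-6 number 2 left 1165 and 1233.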

Other observations

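Among genes with the most unequal responses in HET and WT, 6 had no place in the lists described above or were not described there. Acss2, which makes acetyl-CoA from acetate, stood at 10.0 and 13.8 CPM in the control libraries and 16 and 13.9 CPM in the IL-6 libraries in HET and did not pass (0.32 ± 0.17, edgeR adjusted p = 0.242), while in WT it went from 29.8 and 21.3 to 4.96 and 5.57 CPM (-2.29 ± 0.19). Gpr162, an orphan receptor gene, stood at 18.6 and 24.7 CPM in the control libraries and 23.8 and 21 CPM in the IL-6 libraries in HET (0.04 ± 0.29, edgeR adjusted p = 0.949) and fell in WT from 46.4 and 28.6 to 6 and 10.2 CPM. The stem cell factor receptor gene Kit stood at 2.06 and 3.39 CPM in the control libraries and 2.9 and 3.02 CPM in the IL-6 libraries in HET (0.12 ± 0.28, edgeR adjusted p = 0.824) and fell in WT from 7.77 and 4.63 to 1.32 and 1.55 CPM. The HET groups overlapped in Gpr162 and Kit, and lay next to each other without overlap in Acss2.

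Phgdh, the first enzyme of serine synthesis, stood at 18.8 and 21.6 CPM in the control libraries and 57 and 49.8 CPM in the IL-6 libraries in HET (1.40 ± 0.30, edgeR adjusted p = 0.0238), and fell in WT from 52 and 29.3 to 8.85 and 13.6 CPM. Its call in HET was lost without any 1 of the HET libraries (edgeR adjusted p = 0.0704 to 0.15). Cd34, a surface sialomucin of progenitor cells, fell in HET from 27.1 and 18.1 CPM to 12.8 and 10.1 CPM (-1.0 ± 0.21) and rose in WT from 10.4 and 13 to 41.5 and 30.9 CPM. Dmpk, a kinase gene, fell in HET from 62.6 and 46.8 CPM to 27 and 31.4 CPM (-0.90 ± 0.19) and rose in WT from 16.7 and 23.6 to 72.4 and 54.9 CPM. Both genes were higher in HET than in WT among control libraries and lower in HET after IL-6.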
